A study of Mus musculus with 32 samples.

Results

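The 9 genes described here are the genes of muscle atrophy signaling known from textbooks: the ubiquitin ligases Trim63 (MuRF1), Fbxo32 (atrogin-1), Fbxo30, Fbxo21, Fbxo40 and Traf6, the transcription factors Foxo1 and Foxo3, and the secreted growth factor Mstn (myostatin). They were found by gene name among the 24952 genes of the deposited tables. No threshold on a value entered the choice, but it was made with earlier results of these data known. All 9 were among the 13990 genes that reached 1 CPM (counts scaled to the same library size) in 8 or more libraries and so were tested. The libraries came from the tibialis anterior (TA) muscle of male, wild type C57BL/6JRj mice, caged singly and fed an AIN93M diet. Patches of muscle fiber under the neuromuscular junction (NMJ) or away from it (xNMJ) were cut out by laser and sequenced, which gave 32 libraries. There were 8 for each region and age, named 10m NMJ, 30m NMJ, 10m xNMJ and 30m xNMJ after the age in months. All groups were untreated, and the 10-month-old mice had been on the diet for 2 to 3 months and the 30-month-old mice for 16 months, so that age and time on the diet cannot be told apart. A library pooled about 300 patches, and NMJ patches were found by staining with α-bungarotoxin, a toxin that binds acetylcholine receptors.

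In wasting muscle, proteins are tagged with ubiquitin by ligases and then broken down by the proteasome. F-box proteins such as Fbxo32, Fbxo30, Fbxo21 and Fbxo40 are the parts of SCF ligases that pick the substrate, Trim63 is a RING ligase of the sarcomere, and Traf6 is a RING ligase that also relays signals to NF-κB. Foxo1 and Foxo3 switch on Trim63, Fbxo32 and autophagy genes when they are not held outside the nucleus by Akt. Mstn is made by muscle fibers, limits muscle mass through activin receptors and Smad2/3, and is held in check by follistatin and related binding proteins.

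The region labels were checked against receptor and other synaptic genes. Of 12 synaptic region markers, 9 were higher and 1 was lower in NMJ at each age by edgeR's quasi-likelihood test (adjusted p under 0.05 over all genes). The receptor genes were used through their protein to find the patches, so their difference is a check and not a result. The exception was Lrp4, the muscle receptor for agrin, which was lower in NMJ than in xNMJ at 10 months (log2 fold change of -2.0, SE 0.46) and at 30 months (-1.91, SE 0.46). The library 30m xNMJ replicate 5 stood apart. It held 78.5 TPM (transcript abundance scaled for length and library total) of Chrne, the receptor subunit of the adult junction, while the other 15 xNMJ libraries held 0.0 to 1.6 TPM and the 16 NMJ libraries held 231 to 651 TPM. Its Chrna1, another receptor subunit, was at 32.1 TPM, against 2.77 to 8.38 TPM in the other xNMJ libraries. The main results at 30 months are therefore also given without it. Between regions at 30 months, 1 of the 9 genes was then called (Mstn) and their median was -0.46. The members not given further on were then at -0.26 (Trim63), 0.1 (Fbxo21), -0.46 (Fbxo40), -0.75 (Traf6), -0.78 (Foxo1) and 0.12 (Foxo3) as log2 fold changes, and none of these passed. Muscle fiber markers were abundant in both regions: 12 of them summed to 11.3% of all TPM in 10m xNMJ and 9.37% in 10m NMJ, with Tnnt3 (fast troponin T) the most abundant.

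Promoter sequences are shown for a FoxO target, Trim63, and for Mstn, whose count differed between regions at 30 months. They were copied from a RefSeq table (GRCm38.p6), which holds 9 promoters of 8 of the 9 genes, each running from 250 bases before a start site in that table to 50 bases after it. These start sites can lie inside the gene spans given further on, as for Fbxo30 and 1 of 2 of Fbxo40. Capitals mark exact matches, on either strand, to GTAAACA (the core of a FoxO site) or CAGCTG (an E-box, the site of myogenic factors). CCGGAA (an N-box, known from synaptic genes) was also searched.
Trim63, chr4:134314870-134315169, plus strand: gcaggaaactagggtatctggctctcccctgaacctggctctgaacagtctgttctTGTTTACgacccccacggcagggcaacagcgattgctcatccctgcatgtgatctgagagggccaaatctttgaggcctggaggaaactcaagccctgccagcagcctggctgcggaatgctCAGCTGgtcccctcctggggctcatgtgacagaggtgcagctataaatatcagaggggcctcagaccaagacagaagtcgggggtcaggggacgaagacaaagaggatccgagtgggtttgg
Mstn, chr1:53061390-53061689, plus strand: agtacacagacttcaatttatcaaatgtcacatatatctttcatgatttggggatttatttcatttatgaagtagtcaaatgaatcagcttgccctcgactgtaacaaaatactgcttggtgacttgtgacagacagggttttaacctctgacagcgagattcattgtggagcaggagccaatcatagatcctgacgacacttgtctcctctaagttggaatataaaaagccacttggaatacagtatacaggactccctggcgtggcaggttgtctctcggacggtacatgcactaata
In the Trim63 promoter the FoxO letters lie on the minus strand and start at position -194 from the start site, and an E-box starts at -72. The Mstn promoter holds none of the 3 words. Among the other promoters of the group, the 2 of Fbxo40 held E-boxes, at -81 and -53 in one and at -89 in the other, and those of Fbxo30, Fbxo21, Traf6, Foxo1 and Foxo3 held no match. Of all 32851 promoters of the table, 3.65% held the FoxO letters, 16.3% the E-box and 14.9% the N-box. A match is a description of the letters, not evidence of binding.

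The genes span the following stretches of GRCm38 in GENCODE M21, in which all of them are protein-coding. Trim63 lies at chr4:134315120-134329629, Fbxo32 at chr15:58175879-58214932, Fbxo30 at chr10:11281330-11298052 and Fbxo21 at chr5:117976730-118010201. Fbxo40 lies at chr16:36963460-36990467, Traf6 at chr2:101678429-101701669, Foxo1 at chr3:52268336-52353221, Foxo3 at chr10:42181841-42276755 and Mstn at chr1:53061640-53068079. Fbxo32, Fbxo40 and Foxo3 are on the minus strand.

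Levels were compared between genes in TPM, which are scaled for transcript length. Fbxo32 and Fbxo40 were the abundant members, with means over the 32 libraries of 48.2 TPM (range 23.3 to 116) and 42.6 TPM (20.3 to 85.5). Their means lay above those of 94.0% and 93.5% of the genes in the table. Trim63 followed at 9.19 TPM, then Fbxo30 at 5.4 TPM, Mstn at 5.2 TPM and Foxo1 at 3.81 TPM. The least abundant were Traf6 at 1.62 TPM, Fbxo21 at 1.61 TPM and Foxo3 at 1.46 TPM. The lower of the leading pair lay above the next gene by more than 1 SD of each in all 4 groups: in 30m NMJ, Fbxo40 was at 38.8 ± 7.65 TPM (SD, n = 8) and Trim63 at 8.91 ± 6.73 TPM. It was the higher in 8 of 8 libraries of 10m NMJ, 30m NMJ and 30m xNMJ, but in 7 of 8 of 10m xNMJ, where Trim63 at 42.1 TPM exceeded Fbxo40 at 36.6 TPM in replicate 1. Fbxo32 and Fbxo40 themselves overlapped within 1 SD in every group, and Fbxo32 was the higher of the pair in 4 of 8 libraries of 10m xNMJ, 5 of 8 of 30m xNMJ and 4 of 8 of 30m NMJ, and Fbxo40 in 5 of 8 of 10m NMJ. Every other pair of neighbors in the order also overlapped within 1 SD in each group.

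**Figure D1:**
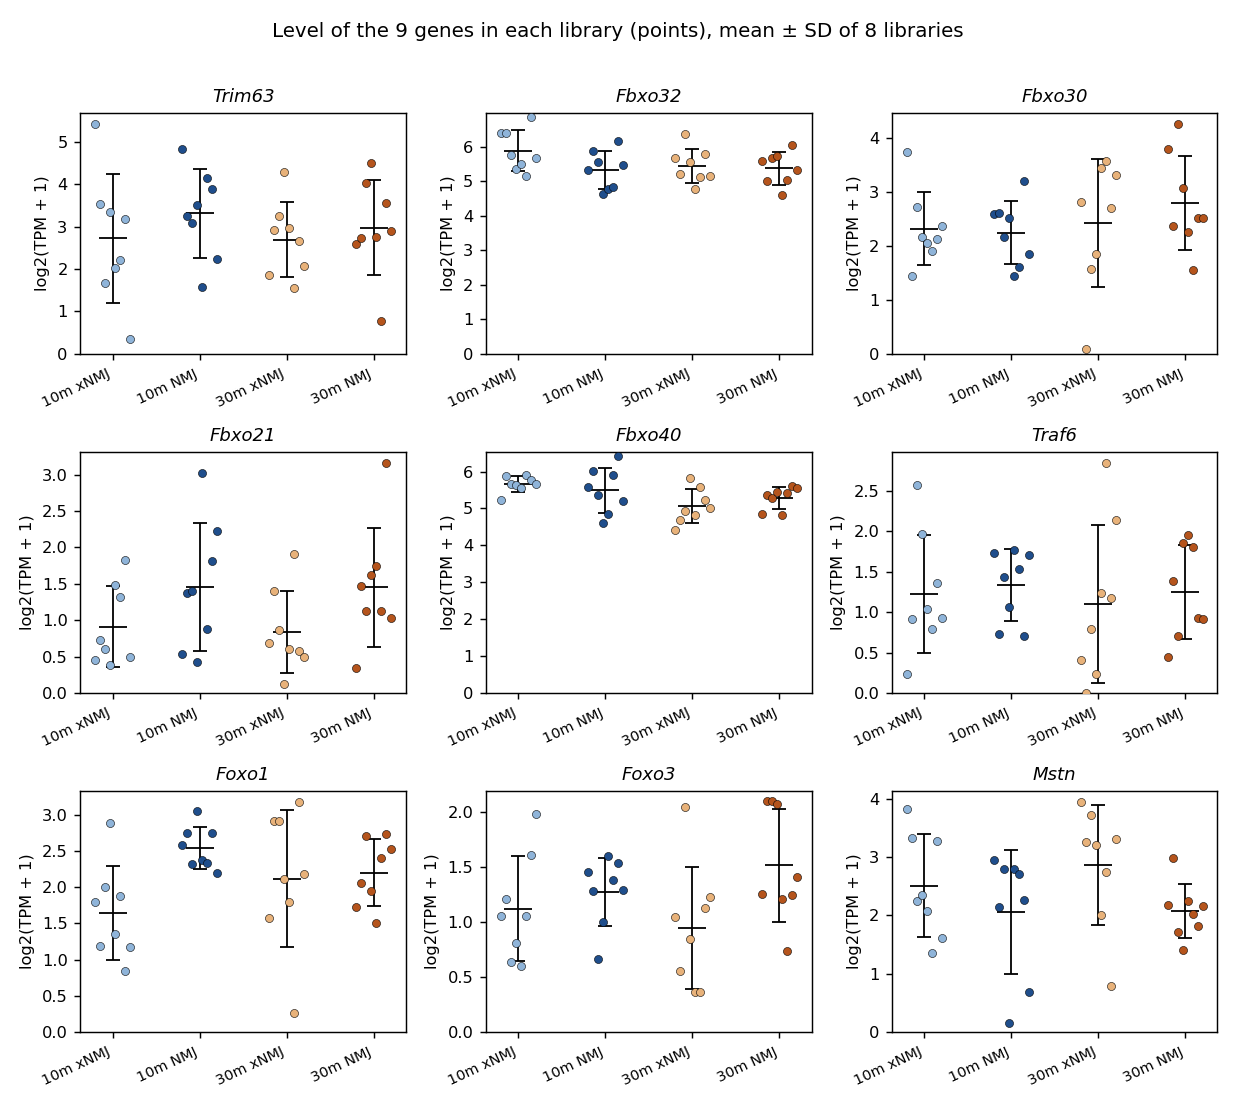
Each panel shows 1 of the 9 genes, with log2(TPM + 1) on the vertical axis, 1 point per library and the mean ± SD of 8 libraries for each group of age and region. Fbxo32 and Fbxo40 sit high with little scatter, while Trim63, Mstn, Fbxo30 and Traf6 scatter over most of their panels within a group.

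The spread between libraries of 1 group set what could be seen. The coefficient of variation of CPM within a group was 35.3% to 44.8% for Fbxo32 and 16.3% to 42.0% for Fbxo40. For Trim63 it was 70.9% to 128%, and for Traf6 50.9% to 126%. Trim63 ranged from 0.356 CPM in 10m xNMJ replicate 8 to 42.3 CPM in 10m xNMJ replicate 1, so that its lowest and its highest library belonged to the same group. The 95% intervals of the log2 fold changes between groups reached 0.44 to 1.36 to either side of the estimate for the 9 genes, depending on gene and comparison.

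Comparisons between regions address which of these genes differ at the synapse. Counts were scaled with TMM factors, which set the typical gene at no change, and 1615 of the 13990 genes (11.5%) differed between NMJ and xNMJ at 10 months and 1295 (9.26%) at 30 months. Of the 9 genes, 1 was lower and none was higher at 10 months (Fbxo32), and 1 was lower and none was higher at 30 months (Mstn). Such shares of 9 are close to those of all genes. The log2 fold change was below 0 for 7 of the 9 at each age, with medians of -0.54 at 10 months and -0.44 at 30 months, against 0.0 and -0.01 over all genes tested; with library totals alone it was below 0 for 3 and 4 of the 9, with medians of 0.04 and 0.2 against 0.56 and 0.61 over all genes. In bulk patches, fewer cells of a type and less RNA per cell cannot be told apart. Nothing in the labels says whether libraries came from separate animals, so p values measure the spread between these samples. A block on replicate number changed which genes were called. It called Fbxo32 and Fbxo40 at 10 months and Fbxo32, but not Mstn, at 30 months.

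Fbxo32, the F-box protein of the SCF ligase that is induced in most forms of wasting, was lower in NMJ at 10 months. In 10m xNMJ it was between 198 and 800 CPM with a median of 361 CPM, and in 10m NMJ between 120 and 353 CPM with a median of 201 CPM. All 8 libraries of 10m NMJ lay below the median of 10m xNMJ, although the ranges overlapped. The difference was 2.07-fold (log2 fold change of -1.05, SE 0.27, adjusted p = 0.0071 by edgeR's quasi-likelihood test). At 30 months it was between 187 and 573 CPM in xNMJ (median 305) and between 133 and 336 CPM in NMJ (median 183). The log2 fold change of -0.69 (SE 0.27) did not pass the threshold (adjusted p = 0.11), and 7 of the 8 NMJ libraries lay below the xNMJ median. Without 30m xNMJ replicate 5 it was -0.76 (adjusted p = 0.073), and without 30m NMJ replicate 7, the library highest in Fbxo32 of its group, it was -0.85 and passed (adjusted p = 0.042). With a block on replicate number it was -0.67 (SE 0.14, adjusted p = 0.0031 by edgeR) and passed. The labels do not say that replicate numbers pair the libraries. The difference between the ages was itself not significant (interaction of 0.36, SE 0.38, adjusted p = 0.9999).

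Fbxo40, a muscle-specific F-box protein known to target Irs1, gave values between 164 and 288 CPM in 10m xNMJ (median 256) and between 93.6 and 310 CPM in 10m NMJ (median 156). All but 1 of the 10m NMJ libraries lay below the median of 10m xNMJ. The log2 fold change was -0.54 (SE 0.22, adjusted p = 0.1 by edgeR). Leaving out 10m NMJ replicate 7, its highest library at 310 CPM, gave -0.73 with an adjusted p of 0.017. A block on replicate number gave -0.63 (SE 0.19, adjusted p = 0.035 by edgeR). At 30 months the medians were 156 CPM in xNMJ and 129 CPM in NMJ, with a log2 fold change of -0.44 (SE 0.22, adjusted p = 0.24).

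The other ligases did not pass the test at either age. Trim63, the sarcomere ligase that is usually read together with Fbxo32, had medians of 6.35 CPM (10m xNMJ), 7.97 CPM (10m NMJ), 7.0 CPM (30m xNMJ) and 4.74 CPM (30m NMJ). Its log2 fold changes were -0.22 (95% interval -1.53 to 1.09) at 10 months and -0.29 (-1.6 to 1.02) at 30 months, so that neither a 2-fold rise nor a 2-fold fall lay outside the interval. Fbxo30 (MUSA1), a ligase induced by loss of nerve contact and restrained by BMP signaling, had medians of 18.0, 13.4, 25.4 and 14.7 CPM in the same order. Its fold changes were -0.58 (SE 0.51) and -0.26 (SE 0.5), and the latter was -0.06 (SE 0.52) without 30m xNMJ replicate 5. Fbxo21 (SMART), a further FoxO-driven F-box protein, had group means of 3.08, 4.5, 3.37 and 3.76 CPM and fold changes of 0.54 (SE 0.62) and 0.17 (SE 0.62).

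Traf6 ran from 0.933 to 28.4 CPM around a median of 6.05 CPM in 10m xNMJ, and in 10m NMJ it had a median of 6.37 CPM and a lowest library at 2.27 CPM. At 30 months it ran from 0.0 to 34.7 CPM in xNMJ and from 1.49 to 9.73 CPM in NMJ, and the 0 belonged to 30m xNMJ replicate 2, where a count of 0 leaves room for up to 3 counts. The coefficient of variation was 93.5% and 126% in xNMJ against 50.9% and 60.1% in NMJ, and the fold changes of -0.55 (SE 0.67) and -0.74 (SE 0.67) were small beside it.

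**Figure D2:**
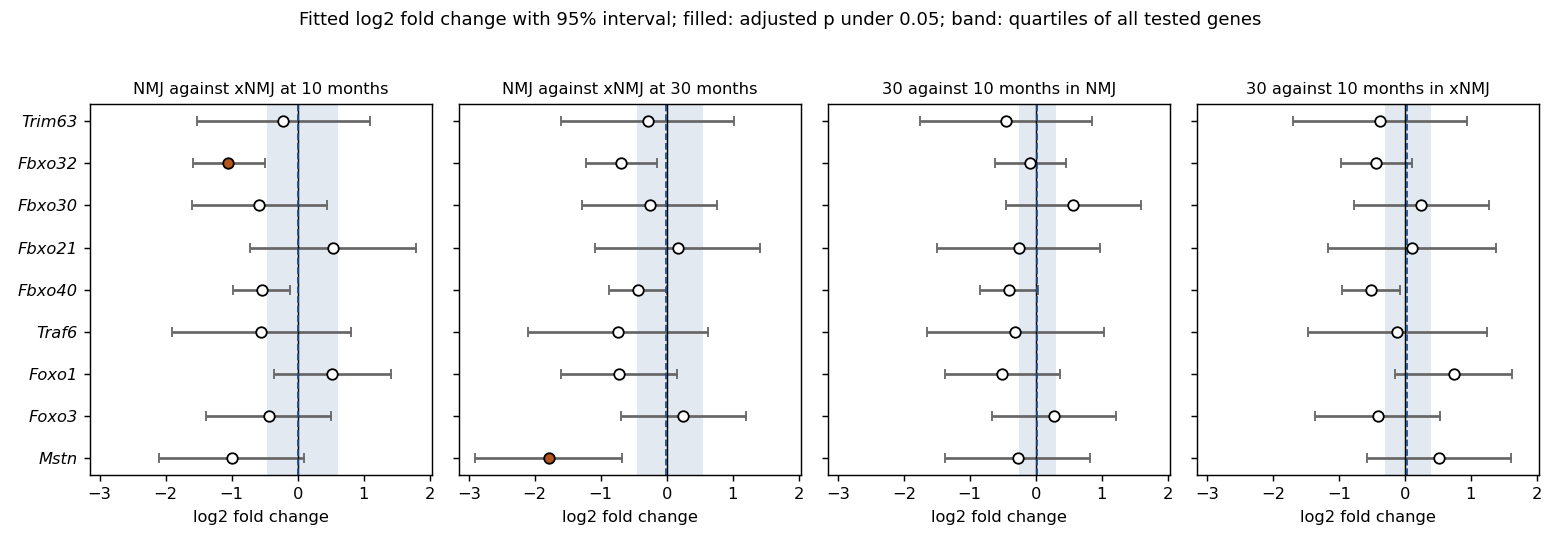
Log2 fold changes (horizontal axis) of the 9 genes in 4 comparisons, with 95% intervals, where filled points mark an adjusted p under 0.05 and the dashed line and band mark the median and quartiles of all 13990 genes. Fbxo32 at 10 months and Mstn at 30 months are the filled points, and both age panels have none.

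Among the transcription factors, Foxo1 had medians of 15.6 CPM (10m xNMJ), 28.4 CPM (10m NMJ), 28.0 CPM (30m xNMJ), and it ran from 13.1 to 35.6 CPM in 30m NMJ. All 8 libraries of 10m NMJ were above the median of 10m xNMJ, and 6 of 8 libraries of 30m NMJ were below that of 30m xNMJ. The fold changes between regions were 0.52 (SE 0.43, adjusted p = 0.52 by edgeR) at 10 months and -0.72 (SE 0.43, adjusted p = 0.37) at 30 months. With 1 library left out, they ranged from 0.38 to 1.04 and from -0.9 to -0.53, and none passed. On log2(TPM + 1), where the median gene was at 0.41, limma called Foxo1 higher at 10 months (0.9, adjusted p = 0.044). The difference between the ages, tested as an interaction, was -1.24 (SE 0.61, adjusted p = 0.97), and it was -1.3 (adjusted p = 0.92) without 30m xNMJ replicate 5. Foxo3 had medians of 6.04, 5.75, 4.88 and 6.22 CPM in the 4 groups, with fold changes of -0.44 (SE 0.46) and 0.25 (SE 0.47).

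Mstn was lower in NMJ at 30 months. It ran from 1.68 to 39.9 CPM in 30m xNMJ, with a median of 21.4 CPM, and from 2.69 to 11.7 CPM in 30m NMJ, with a median of 5.37 CPM. All 8 NMJ libraries were below the xNMJ median, and 30m xNMJ replicate 7, at 1.68 CPM, was the lowest library of both groups. The difference was 3.46-fold (log2 fold change of -1.79, SE 0.55, adjusted p = 0.033 by edgeR), and -1.9 (adjusted p = 0.024) without 30m xNMJ replicate 5. At 10 months Mstn ran from 3.47 to 31.1 CPM in xNMJ (median 11.2) and from 0.251 to 13.0 CPM in NMJ (median 8.36), and the log2 fold change of -1.0 (SE 0.54) did not pass (adjusted p = 0.28). The 2 ages did not differ in this by the interaction (-0.79, SE 0.76, adjusted p = 0.9999).

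The call for Mstn at 30 months lay near the threshold. With no filter on low counts it was lost (-1.74, adjusted p = 0.054 by edgeR). A block on replicate number, not given as a pairing by the labels, also ended it (-1.58, adjusted p = 0.13 by edgeR). The call was lost too in 10 of the 32 fits that left out 1 library. Without 30m xNMJ replicate 1, 2, 3 or 4 the log2 fold change was -1.59, -1.73, -1.66 or -1.76 with adjusted p values of 0.075, 0.054, 0.063 and 0.051 by edgeR. Without 30m NMJ replicate 1, 3, 4, 6, 7 or 8 it was -1.8, -1.72, -1.68, -1.77, -1.76 or -1.76 with adjusted p values of 0.051, 0.065, 0.069, 0.056, 0.056 and 0.055. It remained below 0 in all 32.

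The choice of scale mattered for the comparison of regions. NMJ libraries were deeper, with median totals of 9605869 counts at 10 months and 9825357 at 30 months against 6062117 and 6790011 in xNMJ, and their TMM factors had medians of 1.211 and 1.254 against 0.831 and 0.765. With library totals alone, the median of all genes moved to 0.56 at 10 months and 0.61 at 30 months, and the share of called genes that were higher in NMJ went from 56.3% to 92.7% and from 54.1% to 97.3%. On that scale Fbxo32 at 10 months was at -0.49 (adjusted p = 0.17 by edgeR) and Mstn at 30 months at -1.11 (adjusted p = 0.14). Relative to the median gene, the differences were -1.05 for Fbxo32 and -1.72 for Mstn, and in limma on log2(TPM + 1) they were -0.96 and -1.33. The lower values of these genes in NMJ thus describe a place below the typical gene, and how much RNA a patch held in all was not measured. With library totals Fbxo40 turned to 0.01 at 10 months and 0.2 at 30 months, and Trim63 to 0.34 and 0.39. Mean insert size also differed between regions, with medians of 117.5 and 107 bp in NMJ at 10 and 30 months against 93.5 and 96 bp in xNMJ. With insert size as a covariate, 1135 and 1231 genes were called. Fbxo32 at 10 months (-1.0, adjusted p = 0.027) and Mstn at 30 months (-1.88, adjusted p = 0.043) then kept their calls by edgeR.

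**Figure D3:**
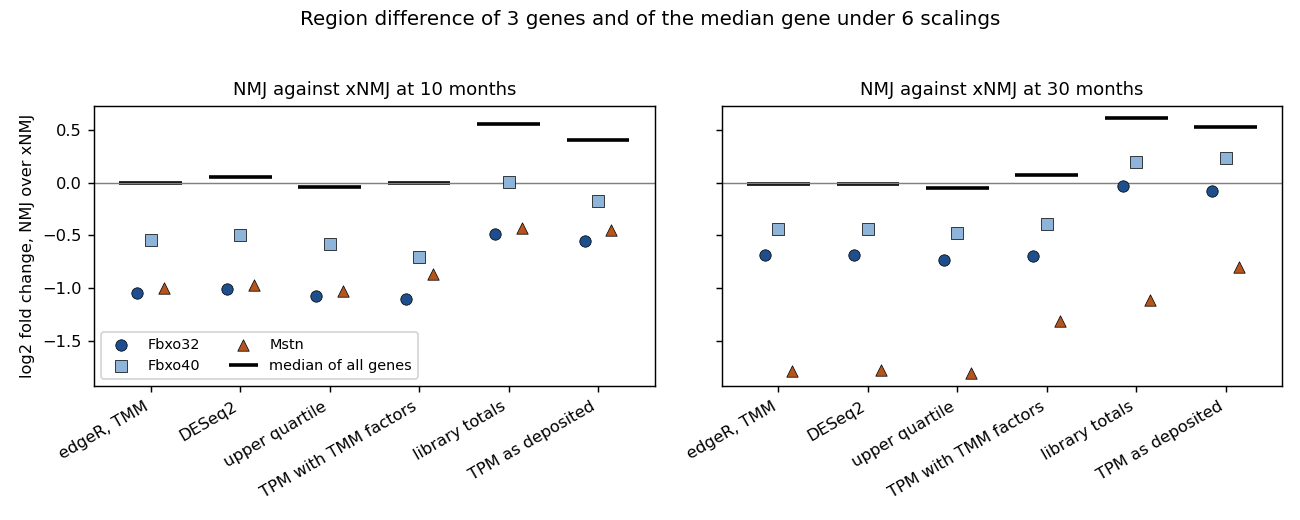
Log2 fold change of NMJ over xNMJ (vertical axis) for Fbxo32, Fbxo40 and Mstn under 6 scalings, with the median of all genes as a bar. Each gene lies below the bar in every column, while the bar itself moves to 0.56 and 0.61 with library totals and to 0.41 and 0.53 with TPM as deposited.

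No gene of the group changed with age by the test. In NMJ, 0 of the 13990 genes (0.0%) differed between 30 and 10 months in edgeR, with 372 at an unadjusted p under 0.05, 0 in DESeq2 and 3 in limma on log2(TPM + 1). The edgeR fit shares 1 estimate of the spread of a gene across all 4 groups, so its NMJ values do not measure the spread of NMJ libraries alone. With only the compared groups in edgeR, 717 of 12932 genes had an unadjusted p under 0.05 and 0 were called. In xNMJ, 6 genes (0.0429%) differed in edgeR and 84 in DESeq2. The 6 became 2, 0, 0, 1, 0 and 3 without 10m xNMJ replicates 1 to 6 in turn, 0 without 30m xNMJ replicate 2 and 3 without 30m xNMJ replicate 5. Tested as an interaction, the region difference changed with age for 0 genes (0.0%) in edgeR, with 708 at an unadjusted p under 0.05 and 10 genes in DESeq2. Fbxo40 came nearest of the 9: its median went from 256 to 156 CPM in xNMJ (log2 fold change of -0.51, SE 0.22, adjusted p = 0.44) and from 156 to 129 CPM in NMJ (-0.41, SE 0.21, adjusted p = 0.9998). At 30 months 7 of 8 libraries lay below the 10-month median in either region. Without 30m xNMJ replicate 5 the xNMJ value was -0.5 (adjusted p = 0.44).

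The remaining age differences did not pass the test. Fbxo32 was at -0.43 (SE 0.27) in xNMJ and -0.08 (SE 0.27) in NMJ, and Trim63 at -0.38 (SE 0.65) and -0.45 (SE 0.64). Fbxo30 was at 0.25 (SE 0.5) and 0.57 (SE 0.5), and Traf6 at -0.12 (SE 0.67) and -0.31 (SE 0.66). Fbxo21 was at 0.11 in xNMJ (95% interval -1.16 to 1.38) and -0.26 in NMJ (-1.5 to 0.98), and Foxo3 at -0.41 (SE 0.47) and 0.28 (SE 0.46). Foxo1 was at 0.74 (SE 0.44) in xNMJ and -0.51 (SE 0.43) in NMJ, and Mstn at 0.52 (SE 0.54) and -0.27 (SE 0.54). For Fbxo32 the 95% interval in NMJ ran from -0.62 to 0.46, which leaves out a 2-fold change, while for Trim63 it ran from -1.75 to 0.86.

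The wider pathways are given as counts from fixed gene lists. Over all 13990 genes, 909 were higher and 706 lower in NMJ at 10 months (11.5% called) and 700 and 595 at 30 months (9.26% called), and the counts of each list stand beside these shares. Of 30 tested genes of the SCF core and other muscle ligases, 6 were lower in NMJ at 10 months and 5 at 30 months, and none was higher; the medians were -0.21 and -0.33, but with library totals alone 6 and 5 genes were higher, none was lower, and the medians were 0.35 and 0.29. Wwp1, a ligase of the Nedd4 family, was lower at both ages (-0.81, SE 0.14, and -0.63, SE 0.14). Usp14, a deubiquitinase of the proteasome, was too (-1.12, SE 0.27, and -1.3, SE 0.27). Nedd4 passed at 10 months (-0.59, SE 0.14), and Zfand5, a ubiquitin-binding protein of atrophying muscle, at 30 months (-0.71, SE 0.17). These 4 genes kept their sign under all 8 scalings tried, and none of these calls held with library totals or with TPM as deposited. With age, no gene of the list passed in either region. Without 30m xNMJ replicate 5, 6 genes of the list were lower at 30 months.

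Of the FoxO family and its regulators, 2 of 25 tested genes were higher and 2 lower in NMJ at 10 months, and 4 were higher and 1 lower at 30 months, or 3 and 1 without 30m xNMJ replicate 5. Sgk1, a kinase that like Akt phosphorylates FoxO, was lower in NMJ, with means of 131 CPM (xNMJ) and 56.8 CPM (NMJ) at 10 months and 165 and 50.9 CPM at 30 months (-1.21, SE 0.24, and -1.7, SE 0.24). Igf1, the growth factor upstream of Akt, was higher, with means of 8.91 CPM (xNMJ) and 38.8 CPM (NMJ) at 10 months and 3.53 and 34.6 CPM at 30 months (2.14, SE 0.56, and 3.29, SE 0.59). Myogenin (Myog), a regulator of Trim63 and Fbxo32 after denervation, averaged 0.287 CPM in 10m xNMJ, near the 0.182 to 0.745 CPM that 3 counts are worth, and 2.29 CPM in 10m NMJ. At 30 months it averaged 0.442 and 4.61 CPM. Igf1, Myog and, at 30 months, Sgk1 passed under each of the 8 scalings, and Sgk1 at 10 months under 7.

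Of 23 FoxO target genes, 0 were higher and 1 was lower in NMJ at 10 months, and 0 were higher and 2 lower at 30 months, with medians of -0.16 and -0.34 that turned to 0.4 and 0.26 with library totals. Bnip3, a mitophagy receptor, was the gene called at both ages (-1.07, SE 0.19, and -0.8, SE 0.19), and Ctsl, a lysosomal protease, was called at 30 months (-0.75, SE 0.24). Bnip3 passed under all 8 scalings at 10 months and under 5 at 30 months, and Ctsl under 4. Without 30m xNMJ replicate 5, 1 of the 23 was lower at 30 months.

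Called genes of the myostatin and activin pathway were higher in NMJ, unlike Mstn itself. Of 25 tested genes, 5 were higher in NMJ at 10 months and 4 at 30 months and none was lower, with medians of 0.37 and 0.35, and 5 were higher at 30 months without 30m xNMJ replicate 5. Fibroblast markers moved with these genes, from a summed 31.8 TPM in xNMJ to 176 TPM in NMJ at 10 months and from 22.8 to 132 TPM at 30 months, and their part in the counts was not tested. Dcn (decorin), a matrix proteoglycan that binds myostatin, had means of 121 CPM (xNMJ) and 892 CPM (NMJ) at 10 months and 125 and 861 CPM at 30 months (2.88, SE 0.28, and 2.78, SE 0.28). Fstl1, a follistatin-like secreted protein, was at 1.72 (SE 0.42) and 1.96 (SE 0.43), and Bmpr2, a type II receptor, at 1.08 (SE 0.27) and 1.28 (SE 0.27). Bmp1, a protease that cuts the myostatin propeptide, was called at 10 months (0.903 CPM in xNMJ and 10.2 CPM in NMJ). Its xNMJ mean is low, since 3 counts are worth 0.933 CPM in 10m xNMJ replicate 1. Dcn, Fstl1, Bmpr2 and Bmp1 passed under all 8 scalings in the comparisons in which they were called. The activin receptor genes Acvr2a and Acvr2b did not pass at 10 months (0.66, SE 0.4, and 0.64, SE 0.39) or at 30 months (0.52, SE 0.4, and 0.35, SE 0.39).

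Of 23 genes of the TRAF6 and NF-κB pathway, 0 passed at 10 months in either direction and 1 was higher at 30 months, with medians of 0.13 and 0.19. These values are on the TMM scale, and with library totals alone the median of all genes moved to 0.56 and 0.61. The gene called at 30 months was Tnfaip3 (A20), a ubiquitin-editing enzyme that restrains NF-κB, with means of 0.564 CPM (xNMJ) and 5.12 CPM (NMJ). Its value in xNMJ lies within the 0.182 to 0.745 CPM that 3 counts are worth before TMM factors.

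**Figure D4:**
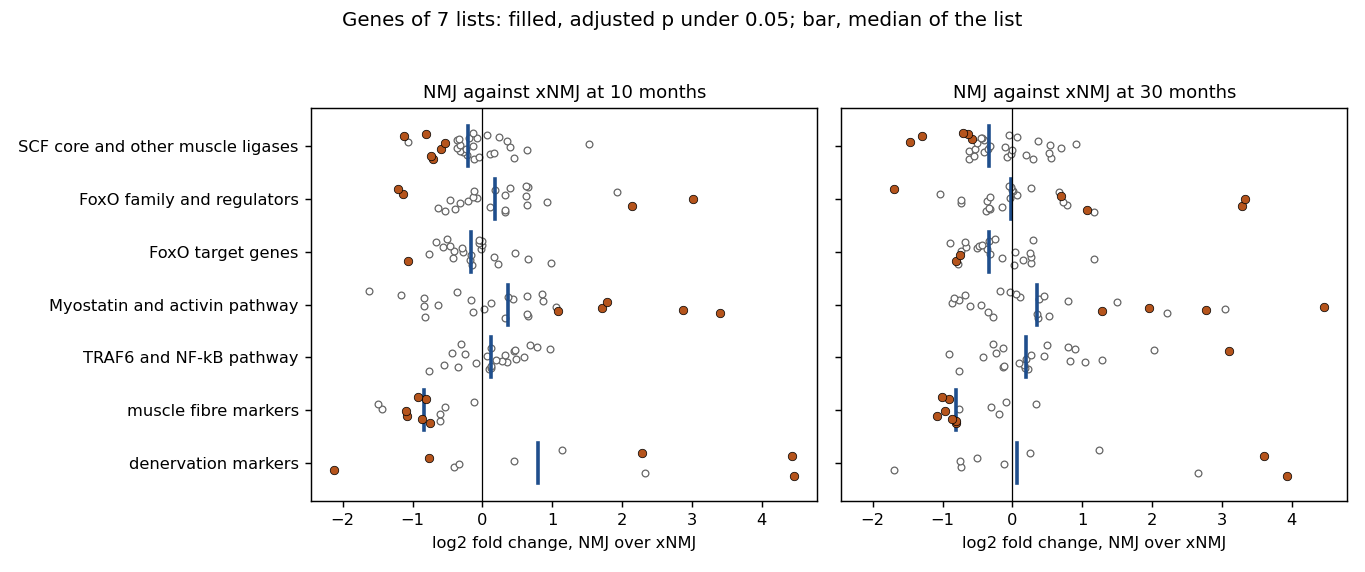
Log2 fold change of NMJ over xNMJ (horizontal axis) for the genes of 7 fixed lists at each age, where filled points mark an adjusted p under 0.05 and bars the median of a list. Called genes of the ligase and fiber lists lie left of 0 and those of the myostatin and activin list right of 0 on the TMM scale, whereas with library totals the called ligase genes were all higher in NMJ and no fiber gene was called.

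Markers of fibers and of some other cell types moved with the region. Of 12 fiber markers, 6 were lower in NMJ at 10 months and 7 at 30 months, with medians of -0.84 and -0.81, which are of the size seen for Fbxo32; with library totals the medians were -0.29 and -0.17 and none passed. Ckm, the muscle creatine kinase, was at -1.08 (SE 0.23) at both ages. Schwann cell markers were higher for 7 of 8 genes at both ages, with a summed level of 8.97 TPM in 10m xNMJ and 225 TPM in 10m NMJ, and of 12.9 and 188 TPM at 30 months, Pmp22 being the most abundant of them (3.6 and 86.4 TPM at 10 months). Of 8 fibroblast markers, whose sums are given above, 4 and 3 were higher (4 at 30 months without 30m xNMJ replicate 5), and Lum was the most abundant of them in NMJ. Macrophage markers summed to 15.5 and 129 TPM and to 10.9 and 99.2 TPM, with 4 of 8 higher at each age. Endothelial markers were lower for 1 of 7 genes at 10 months (Flt1) and 3 at 30 months (Egfl7, Flt1 and Cdh5). Each of these calls held under only 5 of the 8 scalings. Their summed level was 86.4 TPM in 10m xNMJ and 87.1 TPM in 10m NMJ, and 101 and 75.6 TPM at 30 months. Of 6 tested muscle stem cell markers, 2 were higher at 10 months (Sdc4 and Itga7) and 1 at 30 months (Sdc4). The medians of this list were -0.02 and 0.18, and 3 and 5 of the 6 genes lay above 0, so the list did not move as a whole. The part of these differences in the values of Fbxo32 and Mstn was not tested.

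Denervation markers, which rise in fibers that lose their nerve, include the receptor gene Chrna1 and so overlap with the synaptic markers. Of 10 tested, 3 were higher and 2 lower in NMJ at 10 months, and 2 were higher at 30 months. The list medians were 0.8 and 0.07, with 6 and 5 of the 10 genes above 0. Lower at 10 months were Dach2 (-2.12) and Myh8 (-0.77), which were called under 7 and 5 of the 8 scalings. Ncam1, a cell adhesion molecule of the synapse and of denervated fibers, was at 4.44 (SE 0.43) and 3.61 (SE 0.41). With age none passed in either region, and the medians were 0.22 in NMJ and 0.69 in xNMJ, the latter 0.36 without 30m xNMJ replicate 5. The one gene of any list called with age was Etv5, a synaptic transcription factor, in xNMJ, with means of 0.665 CPM at 10 months and 17.8 CPM at 30 months (adjusted p = 0.031 by edgeR), and without that library it did not pass (adjusted p = 0.1).

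With the regions pooled, libraries high in 1 member of the group were not generally high in another. After removal of group means, 22 of the 36 pairs of members had a Pearson r above 0 over 32 libraries, 2 had a permutation p under 0.05 and 0 after adjustment over the 36. The highest was Fbxo32 with Foxo3 (r = 0.41, permutation p = 0.029, adjusted p = 0.57, rho = 0.32 with p = 0.082 and adjusted p = 0.63), which was 0.12 within the 16 NMJ and 0.59 within the 16 xNMJ libraries and 0.21 without the 2 libraries farthest from the median. Trim63 with Fbxo32 had r = 0.38 (permutation p = 0.046, adjusted p = 0.57, rho = 0.42 with p = 0.026 and adjusted p = 0.56), 0.33 within NMJ and 0.42 within xNMJ, and 0.42 without the 2 farthest libraries. For some pairs the regions differed: Fbxo30 with Traf6 was at -0.65 within NMJ and 0.64 within xNMJ. Trim63 with Fbxo30 was at 0.61 and -0.14, and Fbxo32 with Fbxo40 at 0.6 and 0.01. Values within a region were not tested.

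The genes most like each member were sought among 6623 genes that averaged 10 CPM or more, by Pearson r of log2 CPM over the 32 libraries, whose differences in region and depth enter every such r. For Fbxo32 they were Prkab2, a subunit of AMP-activated kinase, and A930016O22Rik (0.76 each), and for Fbxo40 Habp2 (0.78) and Nrap, a protein of sarcomere assembly (0.73). Mstn was most like Pabpc4 (0.74) and Psmd6, a proteasome subunit (0.7). Trim63 was most like Klf4 (0.61) and Irs2, an insulin receptor substrate (0.58). The 2 most like genes were Phf5a and Sri for Fbxo21 (0.58 each), Fbxo28 and Mapk1ip1 for Traf6 (0.74 and 0.66), and Stx5a and Nde1 for Foxo1 (0.68 and 0.65). Among the 2 most like genes were Fbxo9 for Fbxo30 (0.66) and Ttc13 for Foxo3 (0.62).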

How the data were processed

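Laser-captured NMJ and xNMJ regions of TA muscle had been sequenced in 32 libraries, grouped by their labels. The authors prepared libraries with a SMART-Seq v4 kit, trimmed reads with Cutadapt 1.9.1 and assigned them by kallisto 0.43.1 (versions from the submitters' processing notes, which name GRCm38). The gene counts were deposited as whole numbers without normalization. For the deposited TPM, the authors scaled each library for transcript length and total.

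Counts were fitted with edgeR 4.0.16 in R 4.3.3: genes had to reach 1 CPM in 8 libraries, TMM factors were used, and 1 quasi-likelihood model held the 4 groups. Two-sided p values received a Benjamini-Hochberg adjustment across every tested gene, with a threshold of 0.05. CPM in the text are on the TMM scale, and intervals are 95% intervals of the fit. Correlations of members used log2 CPM with a prior count of 2, group means removed, and 100000 permutations within groups.

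Totals lay between 4026648 and 16516788 counts per library, and 3 counts were worth 0.182 to 0.745 CPM before TMM factors. On the TMM scale, 3 counts were worth 0.933 CPM in 10m xNMJ replicate 1. Such floors cover counting error only. No library repeated another of its group (chi-squared per gene of 24.5 to 405 in 112 pairs).

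The 9 genes and the 13 gene lists were chosen with earlier results of these data known. Named from a list were the 3 genes with the smallest p among those called in a comparison, and list genes called with age. Synaptic and fiber markers could also be named as a check of the labels, and the most abundant gene of a marker list beside its sum. Acvr2a, Acvr2b, Dach2 and Myh8 were named after their values were seen. For Fbxo30 and Foxo3, 1 of the 2 most like genes is not reported here.

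The fits were repeated with DESeq2 1.42.0, with its size factors in edgeR, upper quartile factors, no filter on low counts, the compared groups only, limma 3.58.1 on log2(TPM + 1) and log2(TPM + 0.1), insert size as a covariate, the replicate block, and leaving out each library. Library totals alone and TPM with TMM factors were added after seeing the data. The edgeR step was tested on simulated data for NMJ against xNMJ at 10 months with 13660 genes: of 200 genes changed 4-fold, 148 (74%) were recovered, with 10 false calls. The changed genes were drawn from those above a minimum mean level. Smaller changes, such as that of Fbxo32, were not simulated, so the share recovered does not apply to them. Figures used matplotlib 3.10.9.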

Additional observations from a re-analysis of the deposited data

Results flagged for a closer look

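In 72 groups of 8 libraries, 36 of them for the 9 genes, the highest or lowest library was set against the rest by Dixon's test, which chance passes in about 1 of 20 groups, and 7 passed, 5 of them for members. On the log2 CPM scale, Trim63 was lowest in 30m NMJ replicate 6 at -0.4, with the next library at 2.0. Fbxo30 was lowest in 30m xNMJ replicate 2 at -0.8, with the next at 3.36, and Foxo1 in 30m xNMJ replicate 6 at 0.74, with the next at 4.16. Mstn was lowest in 30m xNMJ replicate 7 at 0.93, with the next at 3.25, and Fbxo40 in 10m xNMJ replicate 1 at 7.36, with the next at 7.79. The log2 summed TPM of the macrophage markers was lowest in 30m NMJ replicate 5 at 4.99, with the next at 6.25. The mean insert size of 10m NMJ replicate 8 was 52 bp, with the next at 109 bp, and without this library Fbxo32 at 10 months was at -1.08 (adjusted p = 0.0094 by edgeR).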

How the results depend on the processing

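Of the values recomputed under alternatives that kept all libraries, 516 kept their direction and side of the threshold, 48 reversed, 28 counts moved, 8 calls were lost and 4 were gained. With 1 library left out, 1707 kept theirs, 31 reversed, 20 counts moved, 10 calls were lost and 2 were gained. No value of a member reversed under DESeq2, its size factors, upper quartile factors, no filter or the compared groups only. Fbxo32 at 10 months held under DESeq2 (-1.01), no filter (-0.98), insert size (-1.0) and TPM with TMM factors (-1.1). It lost its call on library totals (-0.49) and on TPM (-0.55 and -0.56), scales that do not set the typical gene at no change. Which scale describes the patches better was not tested. Mstn at 30 months lost its call with no filter (-1.74, 0 members called), on library totals (-1.11), on TPM (-0.8 and -0.89) and with the replicate block (-1.58); the cause was not tested.

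With library totals, 2877 genes (10 months) and 2767 (30 months) were called between regions and 0 members at either age; at 10 months Trim63 turned to 0.34, Fbxo40 to 0.01, Traf6 to 0.04 and Foxo3 to 0.08, at 30 months Trim63 to 0.39, Fbxo30 to 0.34 and Fbxo40 to 0.2, with age in xNMJ Fbxo21 to -0.01, and in the interaction Trim63 to 0.05. With log2(TPM + 1), 2862 and 3496 genes were called, 91.7% and 98.3% of them higher, with 0 members at 30 months, and 3 genes with age in NMJ and 0 in xNMJ; Trim63 turned to 0.59, Traf6 to 0.11 and Foxo3 to 0.16 at 10 months, and Trim63 to 0.28, Fbxo30 to 0.38, Fbxo40 to 0.23, Traf6 to 0.15 and Foxo1 to 0.09 at 30 months. With age, Fbxo32 turned to 0.05 and Mstn to 0.01 in NMJ and Fbxo21 to -0.08 in xNMJ, and in the interaction Fbxo21 to 0.07 and Traf6 to 0.04. With log2(TPM + 0.1), 2895 and 3569 genes were called, 92.0% and 98.4% of them higher, with 0 members at either age and 0 genes with age in xNMJ; Trim63 turned to 0.82, Traf6 to 0.3 and Foxo3 to 0.3 at 10 months, and Trim63 to 0.27, Fbxo30 to 0.69, Fbxo40 to 0.23, Traf6 to 0.6 and Foxo1 to 0.27 at 30 months. With age, Fbxo32 turned to 0.05, Fbxo21 to 0.03 and Mstn to 0.26 in NMJ, Trim63 to 0.13, Fbxo30 to -0.13 and Fbxo21 to -0.2 in xNMJ, and in the interaction Fbxo21 to 0.23 and Traf6 to 0.3.

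With TMM factors on TPM, 2 members were called at 10 months (Fbxo32 and Fbxo40), and 1 gene with age in NMJ and 0 in xNMJ; Trim63 turned to 0.13 at 10 months, Fbxo32 to 0.02 with age in NMJ, Trim63 to 0.03 and Fbxo21 to -0.05 in xNMJ, and in the interaction Fbxo21 to 0.03 and Traf6 to 0.06. DESeq2 called 84 genes with age in xNMJ and 10 in the interaction, the compared groups only 0 in xNMJ, and insert size 2, with Trim63 at 0.04 in the interaction.

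The labels do not say what a replicate number shares, and the data did not settle whether numbers pair the libraries. At 10 months, Lrp4 was lowest in replicates 4 and 8 of xNMJ (167 and 183 TPM) and of NMJ (37.5 and 38.9 TPM). At 30 months Lrp4 was lowest in replicate 5 of xNMJ and of NMJ (79.4 and 42.7 TPM). The mean inserts of these 30-month libraries, at 130 and 129 bp, were the longest of their groups. Deviations of the same number had r over 0.1 in 4 of 8 pairs at 10 months and 1 of 8 at 30 months, not in every pair, but their means were higher, at 0.0893 and 0.0807 against -0.0128 and -0.011 for other numbers, and 4 of 8 NMJ libraries at each age correlated best with their own number, a hint of pairing from the data and not from the design. With the replicate block, 1829 and 1531 genes were called between regions and 0 with age in xNMJ, and 2 members at 10 months (Fbxo32 at -1.02, SE 0.14, and Fbxo40 at -0.63, SE 0.19) and 1 at 30 months (Fbxo32 at -0.67, SE 0.14, adjusted p = 0.0031 by edgeR), while Mstn at 30 months was at -1.58 (adjusted p = 0.13 by edgeR). Under the block Trim63 turned to 0.29 at 10 months and to 0.07 with age in xNMJ, and Traf6 to 0.1 in the interaction.

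With 1 library left out, members called ranged from 1 to 2 at 10 months and 0 to 1 at 30 months, genes called with age in xNMJ from 0 to 7 and in the interaction from 0 to 1 (1 without 10m xNMJ replicate 3 and 1 without 30m xNMJ replicate 7). Values that changed sign ranged from -0.57 to 0.56 and -0.58 to 0.17 for Trim63 between regions at 10 and 30 months, and -0.36 to 0.59 for Fbxo21 at 30 months. With age they ranged from -0.24 to 0.08 for Fbxo32 and -0.79 to 0.14 for Fbxo21 in NMJ, and from -0.84 to 0.4 for Trim63, -0.32 to 0.36 for Fbxo21 and -0.84 to 0.33 for Traf6 in xNMJ. In the interaction they ranged from -0.85 to 0.39 for Trim63, -0.0 to 0.55 for Fbxo30, -0.9 to 0.06 for Fbxo21 and -0.64 to 0.53 for Traf6. The interval of Fbxo21, the member with the lowest counts, reached more than 2-fold to either side.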
